A study of Homo sapiens with 9 samples.

Results

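The interleukin-1 family comprises small cytokines, their receptors and the antagonists that restrain them, and 10 of its genes were followed here: the ligands IL1A, IL1B, IL18, IL33 and IL36G, the receptor antagonists IL1RN and IL36RN, the signalling receptor IL1R1, the decoy receptor IL1R2 and the shared coreceptor IL1RAP. They were chosen by symbol, as ligands and receptors of the family, with no value of these libraries in the rule. Earlier results of these data were known when they were chosen. Of the 16199 genes listed in at least 1 of the 9 libraries, 9 were members, and 8 of the 10 members were among the 12394 genes with enough counts to be tested. IL33 was listed in no library, and IL36G was listed but had too few counts for the test.

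The cells were HaCaT, an immortalized line of human keratinocytes labelled as wild type, and were treated after they had reached confluence. All 3 groups were in serum-free medium: the untreated cells had this medium alone, the second group received epidermal growth factor (EGF) at 10 nM for 24 h, and the third received bleogen pB1, a plant-derived miniprotein that acts as an agonist of the EGF receptor, at 1 µM for 24 h. RNA of 3 replicates of each group was sequenced to a depth of 20288417 to 21320994 expected counts (estimated numbers of fragments assigned to genes) per library. The doses of the agents differ, and nothing in the sources used here states that the replicates were separate cultures, so p-values measure the spread between these libraries, which may be technical.

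Keratinocytes store interleukin-1α and release it when the skin barrier is injured. Interleukin-1α and interleukin-1β bind the receptor encoded by IL1R1, which recruits the coreceptor encoded by IL1RAP and signals through the adaptor MYD88 and IRAK kinases to NF-κB. The protein of IL1RN occupies the same receptor without signalling, the decoy encoded by IL1R2 binds the ligands but lacks a signalling domain, and the proteins of IL36G and IL36RN are agonist and antagonist of a related receptor.

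Of the 10 members, 7 lie in a pair of clusters on chromosome 2 (GENCODE 44, GRCh38, 1-based). The receptors IL1R2 (NCBI gene 7850, from 101991960 to 102028544, plus strand) and IL1R1 (NCBI gene 3554, from 102064544 to 102179874, plus strand) are 36.0 kb apart. In the ligand cluster, IL1A (NCBI gene 3552, from 112773925 to 112784493, minus strand) and IL1B (NCBI gene 3553, from 112829751 to 112836816, minus strand) are 45.3 kb apart. Further along the cluster are IL36G (NCBI gene 56300, from 112973203 to 112985658), IL36RN (NCBI gene 26525, from 113058638 to 113065382) and IL1RN (NCBI gene 3557, from 113099315 to 113134016), all on the plus strand. IL18 (NCBI gene 3606) is on chromosome 11 from 112143253 to 112164096, minus strand, IL1RAP (NCBI gene 3556) on chromosome 3 from 190514051 to 190659750, plus strand, and IL33 (NCBI gene 90865) on chromosome 9 from 6215786 to 6257983, plus strand. IL1R1, IL18 and IL36G overlap genes or pseudogenes on the opposite strand, and since the counting is not stated to have used the strand, reads of these partners cannot be told apart from their own.

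The promoters of 4 members that changed with EGF, 3 upward and 1 downward, are given here. They were picked after these values were seen, and IL36RN and IL1R1 changed with EGF too. Each run is the 250 bases before the most upstream start that RefSeq gives the gene (GRCh38.p14), 5′ to 3′ on the strand of the gene. The run of IL1B lies partly inside the span that GENCODE gives that gene, which ends at 112836816. Capitals mark matches to 4 motifs searched on both strands. These were AP-1 (TGANTCA), the NF-κB site (GGGA and CC with 4 bases of any kind between them), the interferon-stimulated response element ISRE (GAAA repeated after 2 bases of any kind) and the TATA box (TATAAA).
IL1A (chr2:112784494-112784743, minus strand): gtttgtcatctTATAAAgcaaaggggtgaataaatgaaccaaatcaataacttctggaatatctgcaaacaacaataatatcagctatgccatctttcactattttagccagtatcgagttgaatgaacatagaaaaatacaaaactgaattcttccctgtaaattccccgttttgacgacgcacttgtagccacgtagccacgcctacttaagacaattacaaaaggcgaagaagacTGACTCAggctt
IL1B (chr2:112836780-112837029, minus strand): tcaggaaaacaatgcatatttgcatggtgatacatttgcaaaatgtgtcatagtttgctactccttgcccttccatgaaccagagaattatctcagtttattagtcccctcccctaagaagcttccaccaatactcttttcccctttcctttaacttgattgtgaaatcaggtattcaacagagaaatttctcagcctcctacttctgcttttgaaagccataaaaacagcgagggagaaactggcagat
IL1R2 (chr2:101991710-101991959, plus strand): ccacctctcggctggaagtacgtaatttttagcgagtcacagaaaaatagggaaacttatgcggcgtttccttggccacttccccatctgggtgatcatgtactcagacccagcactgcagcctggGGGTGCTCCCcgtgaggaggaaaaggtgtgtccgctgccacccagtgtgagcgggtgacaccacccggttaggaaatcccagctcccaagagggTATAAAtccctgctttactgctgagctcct
IL1RN (chr2:113117721-113117970, plus strand, inside the span that GENCODE gives the gene): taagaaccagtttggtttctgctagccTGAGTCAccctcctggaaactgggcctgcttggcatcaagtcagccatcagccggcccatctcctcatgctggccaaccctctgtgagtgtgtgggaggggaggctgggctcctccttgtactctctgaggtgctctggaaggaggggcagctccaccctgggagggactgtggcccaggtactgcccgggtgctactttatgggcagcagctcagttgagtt
Counted back from the start, the AP-1 match of IL1A lies at -12 to -6. That of IL1RN lies at -223 to -217. The IL1R2 window held an NF-κB match on the opposite strand and a TATA box at -30 to -25, and the IL1B window held none of the 4 motifs. The windows of IL36RN and IL1R1, which are not printed, held none of them either. Of 27305 promoters in the table, 6.57% held the AP-1 letters, 22.0% the NF-κB letters, 3.07% the ISRE letters and 11.2% the TATA box. Of the 9 members with a promoter in the table, 2 held AP-1, 2 NF-κB, 0 ISRE and 2 TATA. A match describes the letters of the window and does not show that a factor binds there.

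In untreated cells, the members ranged from well expressed to not listed. On the FPKM scale (fragments scaled for gene length and depth), which allows levels of different genes to be compared, IL18, an epithelial cytokine made as an inactive precursor, was highest at 59.6 ± 1.81 (SD, n = 3). The coreceptor IL1RAP at 23.6 ± 1.23 and the antagonist IL1RN at 23.3 ± 1.72 followed and overlapped each other. IL1B at 9.76 ± 0.640 was above IL1A at 5.26 ± 0.635, and no library of one overlapped the other. IL36RN at 1.40 ± 0.169 and IL1R1 at 1.33 ± 0.185 overlapped, so untreated cells held far more transcript of the coreceptor than of the ligand-binding receptor. IL1R2 and IL33 were not listed in any of the 3 untreated libraries and were taken as 0, where 3 counts, the smallest number taken as detectable, amount to 0.146 to 0.148 CPM (counts scaled for library size). Floors and intervals of counts cover counting error only.

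The first comparison asked how the members responded to EGF. Of the 8 tested members, 6 were differentially expressed genes (DEGs, adjusted p at most 0.05 and |log2FC| at least 0.5 in edgeR's quasi-likelihood test), with IL1A, IL1B and IL1R2 higher and IL1RN, IL36RN and IL1R1 lower. Among all 12394 tested genes, 36.9% were DEGs in this comparison, 15.1% upward and 21.8% downward, so that many genes outside the family moved too. The median size of the log2 fold change was 1.27 over the 8 members, with IL1R2 as the largest at any value above its bound, and 0.39 over all genes tested. IL1R2 had enough counts to be tested only in the EGF libraries, so its call follows largely from how it entered the tested set. This holds wherever the 8 members are counted in a comparison with EGF. Over the 7 members without IL1R2, the median was 1.23. In bulk RNA, fewer cells that express a gene and less RNA per cell cannot be told apart.

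**Figure D1:**
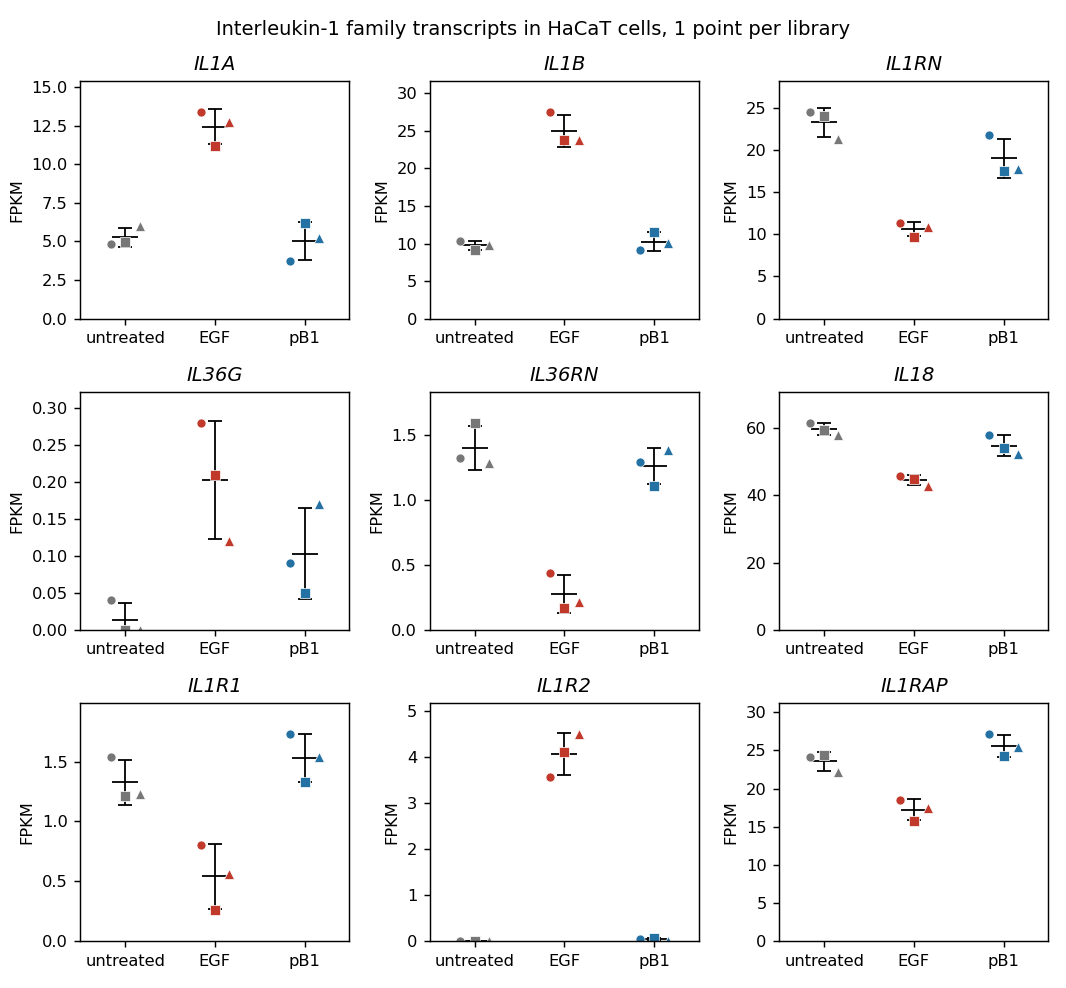
FPKM of the 9 listed members (y axis, linear, from 0) in each library of untreated, EGF-treated and bleogen pB1-treated (pB1) HaCaT cells (x axis), with circles, squares and triangles for replicates 1, 2 and 3 and black bars for the mean ± SD. IL1A, IL1B and IL1R2 stand higher and IL1RN, IL36RN and IL1R1 lower in all 3 EGF libraries, while the bleogen pB1 libraries overlap the untreated ones in every panel except IL36G, which had at most 4 counts in those libraries.

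Both interleukin-1 agonist genes rose. IL1A had 286, 289 and 355 expected counts in the untreated libraries and 800, 661 and 785 in the EGF libraries. The EGF values were all above the untreated ones, and the rise was 1.31 ± 0.15 on the log2 scale (SE, adjusted p = 6.82e-06, edgeR), or 2.47-fold. IL1B, whose protein is inactive until cleaved, had 304, 264 and 287 counts without treatment and 815, 699 and 729 with EGF. Its groups did not overlap either, and it rose by 1.43 ± 0.10 (log2, SE, adjusted p = 1.66e-07, edgeR), or 2.69-fold. The balance between them was compared as a ratio. That of IL1B to IL1A FPKM was 1.87 ± 0.259 in untreated and 2.01 ± 0.134 in EGF-treated cells (SD, n = 3), with overlapping ranges (difference of log2 ratios 0.11 ± 0.127 SE, exact permutation p = 0.5, two-sided).

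The antagonists fell. IL1RN, which encodes the interleukin-1 receptor antagonist, had 880, 850 and 764 counts in untreated cells and 412, 348 and 408 with EGF. The lowest untreated library was thus above the highest EGF library, and the fall was -1.06 ± 0.11 (log2, SE, adjusted p = 2.26e-06, edgeR). IL36RN, the antagonist of the interleukin-36 receptor, had 71, 85 and 69 counts without treatment and 24, 9 and 12 with EGF. This was the largest fall among the 7 members with a fitted fold change, at -2.28 ± 0.29 (log2, SE, adjusted p = 1.82e-05, edgeR), or 4.86-fold.

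Agonist and antagonist therefore changed in opposite directions in the same libraries. The FPKM of IL1A and IL1B summed to 15.0 ± 0.874 in untreated cells and to 37.4 ± 3.08 with EGF (SD, n = 3). The ratio of IL1RN to this sum was 1.61, 1.71 and 1.35 in the untreated libraries and 0.278, 0.278 and 0.299 in the EGF libraries. Antagonist transcript thus exceeded agonist transcript in every untreated library and was below it in every EGF library, a difference of -2.44 ± 0.107 in log2 ratio (SE, exact permutation p = 0.1, two-sided, the smallest that 3 against 3 libraries allow). The ratio combines genes whose changes were given above and is of transcripts, not of proteins.

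The receptors for interleukin-1 changed places. IL1R1 had 154, 121 and 123 counts in untreated libraries and 85, 25 and 56 with EGF. All EGF values were lower, but they varied more than 3-fold among themselves, with replicate 2 the lowest, and the fall was -1.23 ± 0.29 (log2, SE, adjusted p = 0.00223, edgeR). When each library was left out in turn, it ranged from -1.69 to -0.88 and passed both thresholds in 6 of 6 fits. IL1R2, encoding the decoy, had no counts in any untreated library and 105, 120 and 136 with EGF. Its mean of 5.95 CPM was at least 40.6-fold higher than the floor of 3 counts per untreated library. No p-value is given for IL1R2, because it entered the tested set only through the EGF libraries. The ratio of IL1R2 to IL1R1 FPKM was 0 in each untreated library and 4.48, 15.9 and 8.04 in the EGF libraries, so decoy transcript exceeded that of the signalling receptor in all 3.

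The coreceptor and IL18 fell by less than the fold limit. IL1RAP had 2230, 2232 and 2047 counts in untreated cells and 1736, 1448 and 1677 with EGF, with no overlap, a difference of -0.39 ± 0.08 (log2, SE, adjusted p = 0.000521, edgeR). IL18 had 1373, 1319 and 1297 counts without treatment and 1036, 1011 and 1011 with EGF, which was -0.35 ± 0.06 (log2, SE, adjusted p = 0.000368, edgeR). Both passed the adjusted p and missed the limit of 0.5. All 8 tested members thus had an adjusted p of at most 0.05, as did 66.1% of all genes tested, and none of the 8 overlapped between groups in CPM, as held for 70.4% of all genes tested. IL36G, the interleukin-36 agonist of epithelia, had 1, 0 and 0 counts in untreated and 6, 5 and 3 in EGF-treated cells. The ratio of its summed counts was 13.8 with a 95% counting interval from 2.09 to 582, and its highest EGF library was still at 0.280 FPKM.

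The order of levels shifted accordingly under EGF. IL18 at 44.5 ± 1.45 FPKM (SD, n = 3) stayed highest, and IL1B at 25.0 ± 2.17 stood next, above IL1RAP at 17.2 ± 1.38 without overlap. IL1A at 12.4 ± 1.12 and IL1RN at 10.6 ± 0.854 overlapped. IL1R2 at 4.07 ± 0.462 came after them and did not overlap with either neighbour, whereas IL1R1 at 0.540 ± 0.271 overlapped IL36RN at 0.273 ± 0.146, which in turn overlapped IL36G at 0.203 ± 0.080.

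The second comparison asked the same of bleogen pB1, and no tested member was a DEG. Of the 8 members, 0 passed both thresholds with edgeR, and 0 did so with DESeq2 or with limma on FPKM. IL1R2, with at most 2 counts in a library of these groups, could hardly have been called. In edgeR on the 6 compared libraries, 7 members were tested. IL1RN and IL18 had an unadjusted p of at most 0.05, against 22.2% of all genes tested. Of all genes tested in edgeR, 1.48% were DEGs, and 4.11% had an adjusted p of at most 0.05, which held for 0 of the 8 members in this fit. The median size of the log2 fold change was 0.15 over the 7 members other than IL1R2, which had too few counts for a fold, and 0.12 over all genes tested. IL18 was the only tested member without overlap between the groups in CPM, which held for 29.1% of all genes tested.

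For the agonist genes, the values were close to the untreated ones. IL1A had 222, 375 and 312 counts with bleogen pB1, a range that enclosed the untreated one, and differed by -0.08 (95% interval -0.41 to 0.26, log2, adjusted p = 0.813, edgeR). IL1B had 265, 346 and 297 counts and differed by 0.05 (95% interval -0.19 to 0.28, adjusted p = 0.846, edgeR). For both, the interval leaves out changes as large as 0.5 in either direction. The signs of these small values turned when single libraries were left out, which is reported with the alternatives.

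Among the antagonists, IL1RN had 779, 643 and 642 counts with bleogen pB1, and replicate 1 lay within the untreated range while the others lay below it. The difference was -0.31 (95% interval -0.53 to -0.10, log2, unadjusted p = 0.0084, adjusted p = 0.0932, edgeR). Without bleogen pB1 replicate 1 the adjusted p was 0.0155 and the difference -0.43, still under the fold limit, and over all 6 fits with 1 library left out the adjusted p ran from 0.0155 to 0.324. With DESeq2 the adjusted p was 0.0414 on the 6 compared libraries (-0.308) and 0.0592 on all 9 (-0.313), both under the fold limit. The ratio of IL1RN to the sum of IL1A and IL1B was 1.69, 0.985 and 1.17 in the bleogen pB1 libraries, which overlapped the untreated ones (log2 difference -0.31 ± 0.252 SE, exact permutation p = 0.3, two-sided). IL36RN had 70, 61 and 75 counts and differed by -0.17 (95% interval -0.68 to 0.34, adjusted p = 0.715, edgeR), an interval wide enough to hold a change past the limit.

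The receptors did not pass the thresholds either. IL1R1 had 178, 140 and 160 counts with bleogen pB1, overlapping the untreated libraries, and differed by 0.22 (95% interval -0.34 to 0.79, log2, adjusted p = 0.649, edgeR). The gene length deposited for IL1R1, an average over its 10 transcripts weighted by their use in each library, was 5062.95, 5079.01 and 5067.00 bases with bleogen pB1 and 4934.95, 4978.43 and 4901.82 without treatment. These lengths did not overlap (exact permutation p = 0.1, the smallest possible), as was so in the same direction for 5.04% of genes with more than 1 transcript, and the EGF libraries at 5156.99, 4756.00 and 4770.48 bases overlapped both groups. IL1R2 had 1, 2 and 0 counts, at or under the floor of 3 counts, so no fold is given. IL1RAP had 2495, 2289 and 2383 counts and differed by 0.10 (95% interval -0.06 to 0.26, adjusted p = 0.468, edgeR).

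The remaining ligands were close to the untreated level or near the limit of detection. IL18 had 1294, 1231 and 1178 counts with bleogen pB1, all just under the lowest untreated library, though on the FPKM scale 58.1 in the highest bleogen pB1 library overlapped 57.8 in the lowest untreated one. It differed by -0.15 (95% interval -0.29 to -0.01, log2, adjusted p = 0.196, edgeR). IL36G had 2, 1 and 4 counts, and the ratio to the single untreated count was 6.87 with a 95% counting interval from 0.883 to 310. The order of levels in bleogen pB1-treated cells was IL18 at 54.8 ± 2.99 FPKM (SD, n = 3), IL1RAP at 25.6 ± 1.46, IL1RN at 19.0 ± 2.35, IL1B at 10.2 ± 1.27 and IL1A at 5.05 ± 1.23, each without overlap with the next. IL1R1 at 1.53 ± 0.200 and IL36RN at 1.26 ± 0.137 overlapped.

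**Figure D2:**
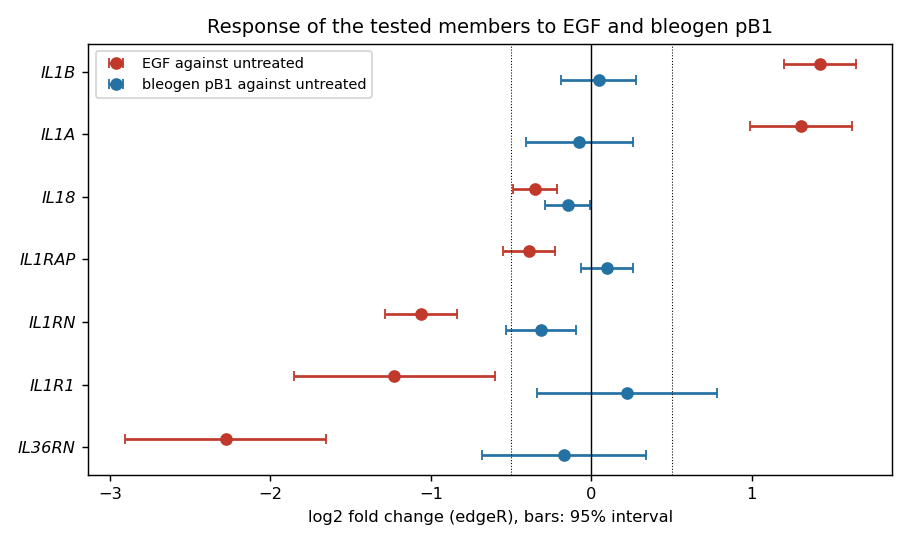
Log2 fold changes of 7 tested members (y axis) against untreated cells, fitted with edgeR on all 9 libraries, for EGF (red) and bleogen pB1 (blue), with bars for the 95% interval and dotted lines at the limit of 0.5 in either direction. IL1R2 is left out because it had no counts in untreated cells. The EGF values run from -2.28 for IL36RN to 1.43 for IL1B, and the bleogen pB1 values from -0.31 for IL1RN to 0.22 for IL1R1.

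The 2 treatments were also compared directly, at their different doses. Of the 8 tested members, 6 were DEGs between EGF and bleogen pB1, 3 higher and 3 lower with EGF, and of all genes tested 28.8% were, 10.8% higher and 18.0% lower. All 8 members had an adjusted p of at most 0.05 (58.2% of all genes tested) and no overlap between the groups (62.4%). With EGF, IL1A was higher by 1.38 ± 0.15 (log2, SE, adjusted p = 6.68e-06, edgeR) and IL1B by 1.38 ± 0.10 (adjusted p = 2.90e-07). IL1RN was lower, at -0.75 ± 0.11 (adjusted p = 6.38e-05), as were IL36RN at -2.11 ± 0.29 (adjusted p = 5.66e-05) and IL1R1 at -1.45 ± 0.29 (adjusted p = 0.000827). IL1R2 had 361 counts in the 3 EGF libraries and 3 in the bleogen pB1 libraries, a ratio of 121 with a 95% counting interval from 40.9 to 587. Without bleogen pB1 replicate 2, which held 2 of these 3 counts, the ratio was 240 with an interval from 42.8 to 9500. The ratio of IL1RN to the sum of IL1A and IL1B was lower with EGF by -2.13 ± 0.234 on the log2 scale (SE, exact permutation p = 0.1, the smallest possible). IL1RAP at -0.49 ± 0.08 (adjusted p = 0.00013, edgeR) and IL18 at -0.20 ± 0.06 (adjusted p = 0.0168, edgeR) passed the adjusted p and not the fold limit. IL18 no longer passed the adjusted p without EGF replicate 3 (0.0855), without bleogen pB1 replicate 1 (0.0717) or with DESeq2 on the 6 compared libraries (0.0589). For IL36G, the ratio of 14 to 7 counts was 2.00 with a 95% counting interval from 0.757 to 5.87, and the groups overlapped.

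Around the members, other genes of the pathway were counted in 5 lists, to be read beside the share of all tested genes called with EGF (15.1% higher, 21.8% lower, 36.9% in all). With bleogen pB1 this share was 1.48%, so 0 calls in lists this short say little about their genes. Of 4 other ligand genes of the family, 3 were listed, none with as many as 10 counts in a library, and 0 could be tested. Of 8 other receptor and binding-protein genes, 6 were tested, and with EGF 3 rose and 2 fell. Of these 5 calls, those of IL18R1 (up) and IL1RAPL2 (down), named after their values were seen, were each lost without untreated replicate 2 and without EGF replicate 3. SIGIRR, an orphan receptor that dampens signals of the family, fell by 1.59 ± 0.11 on the log2 scale (SE, adjusted p = 1.41e-07, edgeR), from 23.3 ± 0.686 to 7.72 ± 0.458 CPM (SD, n = 3). IL1RL1, the receptor of interleukin-33, went from 0, 0 and 1 counts to 34, 18 and 24, a ratio of 74.7 with a 95% counting interval from 13 to 2990. Like IL1R2, it had enough counts to be tested only in the EGF libraries. It shares its position and strand with IL18R1, so that reads could be divided between them. IL1RL2, the receptor of the interleukin-36 ligands, rose by 0.55 ± 0.17 (adjusted p = 0.0114, edgeR), a call that was lost without untreated replicate 2 (0.48, adjusted p = 0.0511). With bleogen pB1, 0 of the 6 passed both thresholds in edgeR (1.48% of all genes tested), DESeq2 or limma. In edgeR, 3 had an unadjusted p of at most 0.05 (22.2% of all genes tested). IL1RL2, SIGIRR and IL1RAPL2, named after their values were seen, differed in the same direction as with EGF. Their CPM did not overlap between the groups, which held for 29.1% of all genes tested. Both comparisons share the untreated libraries, and none of these genes passed the adjusted p with bleogen pB1. The log2 differences of these genes were 0.495 (adjusted p = 0.106, edgeR), -0.399 (0.0512) and -1.435 (0.113). Between EGF and bleogen pB1, IL1RL2 (0.051) and IL1RAPL2 (-0.022) were not called. SIGIRR was lower with EGF (-1.192, adjusted p = 2.67e-06, edgeR).

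Of 17 genes of receptor signalling, 15 were tested, and with EGF 2 rose and 3 fell, a share no higher than the 36.9% of all genes tested. Of the falls, that of IKBKB, named after its values were seen, was close to the fold limit (-0.50) and was called in 3 of 6 fits without 1 library, and not without untreated replicate 1, EGF replicate 1 or EGF replicate 2. IRAK1, a kinase that acts after MYD88, rose by 0.85 ± 0.07 on the log2 scale (SE, adjusted p = 4.80e-07, edgeR), and CHUK, a subunit of the IκB kinase, by 0.82 ± 0.10 (adjusted p = 1.40e-05). TAB1, which activates the kinase TAK1, fell by 0.78 ± 0.09 (adjusted p = 8.25e-06). With bleogen pB1, 1 of the 15 was called in edgeR (1.48% of all genes tested), and 7 had an unadjusted p of at most 0.05 (22.2% of all genes tested). The single call with bleogen pB1 was TAB3, an adaptor of TAK1, which fell by 0.53 ± 0.07 (adjusted p = 0.00146, edgeR), from 268 ± 8.37 to 186 ± 13 CPM (SD, n = 3). Without bleogen pB1 replicate 2 its difference was -0.49 (adjusted p = 0.00722), under the fold limit, and with EGF it was -0.49 as well (adjusted p = 7.58e-05), also under it. MYD88, named after its values were seen, was at 115 ± 2.29 CPM in untreated cells, at 87.9 ± 3.48 with EGF and at 87.4 ± 4.07 with bleogen pB1. Its differences of -0.39 from the untreated libraries, which both comparisons share, passed the adjusted p (6.72e-05 and 0.00203, edgeR) and not the fold limit.

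Of 18 genes for the processing and release of the cytokines, 13 were tested, and with EGF 2 rose and 6 fell, where 15.1% of all genes tested rose and 21.8% fell. CASP1, the protease that activates interleukin-1β and interleukin-18, fell by 1.97 ± 0.09 on the log2 scale (SE, adjusted p = 3.80e-09, edgeR), from 21.6 ± 0.598 to 5.51 ± 0.279 CPM (SD, n = 3). Its expected counts were partly fractional, and its values are uncertain to that extent. PYCARD, the adaptor that recruits caspase-1 to inflammasomes, fell by 1.00 ± 0.10 (adjusted p = 2.60e-06, edgeR). CAPN2, the large subunit of a calpain, the protease family that cleaves the interleukin-1α precursor, rose by 0.65 ± 0.06 (adjusted p = 6.30e-07, edgeR). CAPN1 of the same family and NLRP1 are named after their values were seen. CAPN1 differed by -0.33 (adjusted p = 0.000687, edgeR), under the fold limit. NLRP1 was the other gene that rose, by 1.28 (adjusted p = 0.000756, edgeR), to 2.2 ± 0.165 CPM. IL1B transcript thus rose in the same libraries in which CASP1 and PYCARD fell. With bleogen pB1, 0 of the 13 passed both thresholds in edgeR (1.48% of all genes tested), DESeq2 or limma. In edgeR, 5 had an unadjusted p of at most 0.05 (22.2% of all genes tested).

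Of 17 genes known as targets of interleukin-1, 12 were tested, and with EGF 6 rose and 2 fell, where 15.1% of all genes tested rose and 21.8% fell. The falls were of LCN2 and ICAM1, named after their values were seen. LCN2 fell by 0.67 (log2, adjusted p = 0.00059, edgeR) and was called in 6 of 6 fits without 1 library. The fall of ICAM1 was lost without untreated replicate 1 and without EGF replicate 3. NFKBIA (-0.015), NFKBIZ (-0.071), SOD2 (0.114) and IL6 (-0.544, adjusted p = 0.123, edgeR), also named after their values were seen, were tested and not called. TNFAIP3, an inhibitor of NF-κB that NF-κB induces, rose by 2.49 ± 0.14 on the log2 scale (SE, adjusted p = 1.19e-08, edgeR), from 15.5 ± 2.46 to 87.2 ± 8.04 CPM (SD, n = 3). CXCL8, a chemokine for neutrophils, rose by 2.43 ± 0.39 (adjusted p = 0.000118, edgeR) and reached 2.63 ± 0.473 CPM. CSF2, a growth factor of myeloid cells, had 2 counts in untreated and 109 in EGF-treated cells, a ratio of 53.6 with a 95% counting interval from 14.5 to 448. Like IL1R2, CSF2 had enough counts to be tested only in the EGF libraries. These genes also respond to other signals, and the list does not tell which signal moved them. With bleogen pB1, 0 of the 12 passed both thresholds in edgeR (1.48% of all genes tested), DESeq2 or limma. In edgeR, 2 had an unadjusted p of at most 0.05 (22.2% of all genes tested).

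**Figure D3:**
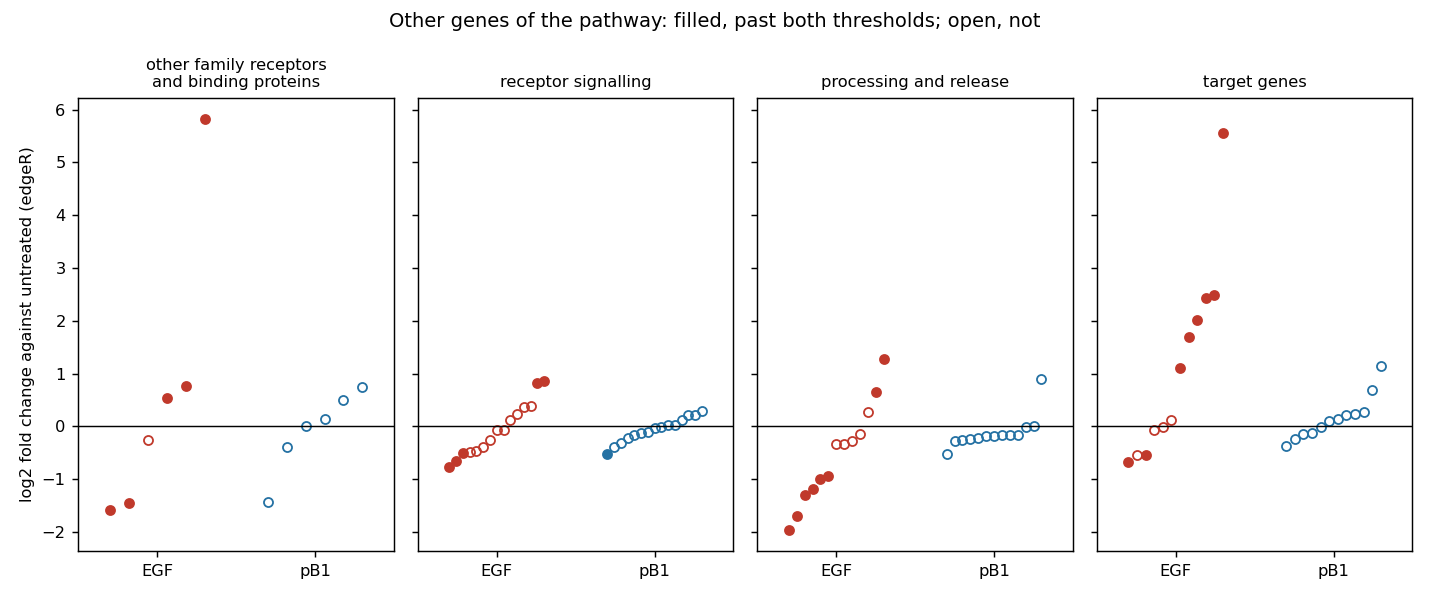
Log2 fold changes against untreated cells (y axis, edgeR) of the tested genes of 4 pathway lists, 1 point per gene sorted by value, for EGF (red) and bleogen pB1 (pB1, blue), filled where the gene passed both thresholds. The highest points of the first and last panels are IL1RL1 and CSF2, whose fitted values depend on the few untreated counts, and 1 of the bleogen pB1 points is filled.

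The genes whose levels over the 9 libraries were most like those of the interleukin-1 genes were found among 10219 genes with a mean of at least 5 CPM, by Pearson's r of log2 CPM, as a description. For IL1A they were STAMBPL1 (r = 0.997), CCNYL1 (0.994) and MAB21L1 (0.991), for IL1B F3 (0.996), SOX15 (0.995) and EIF2B2 (0.995), and for IL1RN LY6E (0.996), TLCD1 (0.993) and PDLIM1 (0.992). The points are the same 9 libraries with the EGF group apart, and 1554, 1817 and 1786 genes had an r over 0.9 with IL1A, IL1B and IL1RN. F3, the initiator of coagulation, was at 323 CPM without treatment, 659 with EGF and 340 with bleogen pB1, and LY6E at 495, 206 and 384 CPM.

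The keratinocyte label was checked with 8 markers, all of which had at least 10 counts in every library. Their summed level was 12400 to 13700 CPM without treatment, 11600 to 12400 with EGF and 12600 to 14400 with bleogen pB1. With EGF 5 of the 8 were DEGs (36.9% of all genes tested), 4 higher and 1 lower. Among them were ITGA6, which rose by 1.30 (log2, adjusted p = 1.51e-08, edgeR), and KRT5, which fell by 1.12 (adjusted p = 1.68e-07), from 7810 to 3600 CPM. With bleogen pB1 0 were DEGs in edgeR (1.48% of all genes tested) or DESeq2 and 1 in limma. In edgeR, 6 had an unadjusted p of at most 0.05 (22.2% of all genes tested). KRT14 (0.479, adjusted p = 0.00169, edgeR), ITGA6 (0.47, 0.0028) and PKP1 (0.251, 0.0188) passed the adjusted p and not the fold limit. The other markers did not pass the adjusted p, which 4.11% of all genes tested did. Markers of other cell types were low. Leukocyte markers, which bear on these cytokines, summed to 0.812 to 1.82 CPM without treatment, 0.867 to 1.71 with EGF and 1.34 to 2.25 with bleogen pB1, and 1 of 5 could be tested and was not a DEG. Fibroblast markers summed to 7.62 to 9.31, 1.30 to 1.95 and 6.08 to 9.08 CPM in the same order, and endothelial markers to 3.44 to 4.78, 0.289 to 0.504 and 1.16 to 1.91 CPM. Melanocyte markers summed to at most 1.58 CPM, with TYR at 0 in all libraries. The fibroblast sum was lower with EGF. The endothelial sum was lower with EGF and, also without overlap, with bleogen pB1. There, CDH5 fell by 2.34 (log2, adjusted p = 0.00765, edgeR), a call lost without untreated replicate 3 (adjusted p = 0.0503). In DESeq2 0 of the 4 endothelial markers were DEGs with bleogen pB1, and in limma 1 was. The part of these markers of other cell types, and of the keratinocyte markers that moved, in the results of the members was not tested.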

How the data were processed

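RNA of 9 libraries was analysed, 3 per group, grouped by their titles. Per the labels, stranded libraries were made from polyadenylated RNA and sequenced on the DNBSEQ platform after extraction with an RNeasy kit, whereas the paper names a PureLink kit and a BGISEQ instrument. The authors had the reads mapped to GRCh38.p12 in an online system of the sequencing company, and the counting program and its use of the strand are not given in the sources used here. Each library had its own file. The authors deposited expected counts, which estimate the fragments of each gene and carry no scaling for depth. The deposited FPKM relate these counts to effective gene length and library size. The deposited gene length averages the transcripts of a gene in 1 library. A gene missing from a file was taken as 0, and members were found by symbol.

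Expected counts were rounded and entered edgeR 4.0.16 under R 4.3.3 (filterByExpr, TMM factors of 0.9635 to 1.0238, glmQLFit and glmQLFTest, all 9 libraries in 1 fit with 6 residual degrees of freedom, Benjamini-Hochberg adjustment over 12394 genes). DEG thresholds were those of the paper, which used DESeq2. SE was |log2FC| over the square root of F. Permutation tests of ratios were exact and two-sided. Intervals of count ratios are exact and conditional on the summed counts. Depth was 20288417 to 21320994 expected counts per library, so that 3 counts equal 0.141 to 0.148 CPM. Positions are of GENCODE 44, and promoters of the RefSeq table on GRCh38.p14, which lists 9 of the 10 members.

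The members and lists were chosen with earlier results of these data known. The text names all members, and of each list at most 3 DEGs per treatment with the smallest adjusted p, and the 3 genes with the highest r for IL1A, IL1B and IL1RN. Further genes of the lists are marked as named after their values were seen. The alternatives were DESeq2 1.42.0, edgeR on the 6 compared libraries, other scaling factors and filters, limma 3.58.1 on log2(FPKM + 1) or log2(FPKM + 0.1), other fold limits, the replicate number as a block and fits without 1 replicate. The scripts were tested on simulated data.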

Additional observations from a re-analysis of the deposited data

How the results depend on the processing

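The counts of members called (6 for EGF against untreated, 0 for bleogen pB1 against untreated and 6 for EGF against bleogen pB1) stayed within 1.5 times of these values under all 14 alternatives and in each fit without 1 library. The ratio of IL1RN to IL1A plus IL1B kept its direction, with log2 differences without 1 library of -2.54 to -2.37 for EGF, -0.53 (without bleogen pB1 replicate 1) to -0.14 (without replicate 2) for bleogen pB1, and -2.30 to -1.91 between the treatments. IL1R2 and IL36RN could not be tested where at least 10 counts were required in every library, which left 4 calls in each EGF comparison, and IL36G, higher with EGF, made a count of 7 against untreated where it was tested with DESeq2, without a count filter or with limma on log2(FPKM + 0.1). The signs of IL1A and IL1B for bleogen pB1 against untreated turned without single libraries, with ranges of -0.25 to 0.10 and -0.06 to 0.12 (log2) and no call. Specifically, IL1A was at 0.02 without untreated replicate 3 and at 0.10 without bleogen pB1 replicate 1, and IL1B at -0.056 without bleogen pB1 replicate 2. IL1RAP for EGF against bleogen pB1 passed the fold limit with upper-quartile factors (-0.58), no scaling (-0.56), limma (-0.55 to -0.57), without EGF replicate 1 (-0.54) and without bleogen pB1 replicate 2 (-0.52). With EGF, limma on log2(FPKM + 1) called 1 and edgeR 5 of the other family receptors; the cause was not tested. Same-numbered libraries share only a number: the mean correlation of their deviations was 0.03 for EGF with untreated and 0.10 for bleogen pB1 with untreated, and with the replicate block the counts of called members were 6, 0 and 6 and no call of a member changed. Depth limits IL36G, IL1R2 outside the EGF group and IL33, and 3 libraries a group limit exact tests to p = 0.1 at best.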
